A study of Homo sapiens with 7 samples.

Results

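Super-enhancers (SEs) centred on the start of a protein-coding gene were examined in HepG2 cells under endoplasmic reticulum stress (ERS). An SE is a cluster of neighbouring H3K27ac peaks, stitched into one region, whose summed signal passes a threshold set in each library. H3K27ac is the acetylation of histone H3 at lysine 27, and ChIP-seq measures it by sequencing DNA that an antibody against the mark pulls down. An SE was called promoter-proximal when its linked gene was typed as protein-coding and its midpoint lay at most 5000 bp from the linked transcription start site (TSS). Of 7472 listed SEs, 1000 met this rule, and they were linked to 453 of the 2002 genes named in the lists (22.6%). The 2002 include non-coding genes, which the rule cannot count. A further 1030 genes typed as protein-coding were linked to other SEs only. After regions of the 6 libraries that shared 1 bp or more were merged, 416 of 1784 merged regions held a promoter-proximal SE.

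HepG2 is an established human liver cancer line. One group of cells received DMSO, the solvent control, and the other tunicamycin (TM), an inhibitor of N-linked protein glycosylation that is used to provoke ERS. There were 3 H3K27ac libraries per group, DMSO 1 to DMSO 3 and TM 1 to TM 3, of one line with no genetic change named, and the labels give no dose or time of treatment. Whether replicates came from separate cultures is not stated, and p-values therefore reflect the spread among these 6 samples, which may be technical. Read totals are unknown, and only SEs above each library's threshold are listed, so an unlisted region may still carry H3K27ac.

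H3K27ac is found both at active enhancers and at the nucleosomes flanking the start sites of active genes. A stitched region centred on a start site therefore holds promoter signal together with that of nearby enhancers. Replication-dependent histone genes are strongly transcribed in dividing cells, and heat shock genes are known for promoters that respond within minutes. ERS activates the unfolded protein response, in which the sensors IRE1, PERK and ATF6 lead to the transcription factors XBP1, ATF4 and CHOP and to their target genes.

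The cell identity was checked on marker genes. Of 24 hepatocyte markers, 5 were linked to an SE in any library (FOXA1, ONECUT2, CPS1, TM4SF4 and FBP1), and 3 of these were promoter-proximal (ONECUT2, CPS1 and TM4SF4). ALB, APOA1, AFP and HNF4A, defining genes of the hepatocyte, were linked in none of the 6 lists. Of 12 markers of other liver cells, 3 were linked (LUM, PTPRC and KRT7) and 0 were promoter-proximal.

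The start regions of 6 genes that recur in the results below are shown. They were chosen because their SEs lay in regions promoter-proximal in all 6 libraries (the histone and heat shock genes) or were listed in TM only (BRD2, TRIB3 and SLC3A2). Each run is the 250 bases before the RefSeq start on GRCh38.p14, 5′ to 3′ on the strand of the gene. Capitals mark the matches, on either strand, to 1 motif per gene. The motif was the CCAAT box (CCAAT) in the histone genes, a heat shock element (GAANNTTC) in HSPA1A, the GC box (GGGCGG) in BRD2 and TRIB3, and the AP-1 site (TGANTCA) in SLC3A2.
H2BC3 (chr6:26043714-26043963, minus strand): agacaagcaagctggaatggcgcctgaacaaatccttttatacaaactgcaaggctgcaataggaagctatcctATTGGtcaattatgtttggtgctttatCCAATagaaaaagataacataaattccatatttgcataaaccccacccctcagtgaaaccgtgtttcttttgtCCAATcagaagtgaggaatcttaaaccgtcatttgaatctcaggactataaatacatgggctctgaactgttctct
H2BC14 (chr6:27814772-27815021, plus strand): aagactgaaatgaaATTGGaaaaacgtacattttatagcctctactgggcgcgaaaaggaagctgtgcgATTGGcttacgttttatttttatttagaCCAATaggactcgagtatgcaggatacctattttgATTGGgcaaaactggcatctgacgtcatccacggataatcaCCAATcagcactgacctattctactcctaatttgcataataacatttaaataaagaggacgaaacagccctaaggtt
HSPA1A (chr6:31815293-31815542, plus strand): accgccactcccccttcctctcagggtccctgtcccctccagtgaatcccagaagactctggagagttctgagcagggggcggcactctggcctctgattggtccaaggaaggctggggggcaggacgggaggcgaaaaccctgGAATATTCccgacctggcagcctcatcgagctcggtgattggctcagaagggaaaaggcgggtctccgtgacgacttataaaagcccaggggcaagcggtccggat
BRD2 (chr6:32968344-32968593, plus strand): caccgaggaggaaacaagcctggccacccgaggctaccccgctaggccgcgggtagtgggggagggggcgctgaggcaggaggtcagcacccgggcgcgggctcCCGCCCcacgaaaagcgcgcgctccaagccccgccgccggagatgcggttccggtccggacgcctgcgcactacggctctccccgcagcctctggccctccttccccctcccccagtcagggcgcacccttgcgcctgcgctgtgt
TRIB3 (chr20:381045-381294, plus strand): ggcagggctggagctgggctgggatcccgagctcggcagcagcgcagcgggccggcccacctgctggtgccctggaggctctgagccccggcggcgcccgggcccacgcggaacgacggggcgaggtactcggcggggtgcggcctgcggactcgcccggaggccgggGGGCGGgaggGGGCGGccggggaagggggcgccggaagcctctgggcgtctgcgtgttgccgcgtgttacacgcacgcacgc
SLC3A2 (chr11:62881449-62881698, plus strand): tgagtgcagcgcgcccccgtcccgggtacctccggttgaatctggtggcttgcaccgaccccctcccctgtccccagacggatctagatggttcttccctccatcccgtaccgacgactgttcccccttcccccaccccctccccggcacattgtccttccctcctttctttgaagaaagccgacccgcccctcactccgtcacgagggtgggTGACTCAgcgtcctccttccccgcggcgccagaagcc

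The windows of H2BC3 and H2BC14, which encode histone H2B, held 3 and 5 CCAAT boxes, the nearest beginning 76 and 77 bases before the start. The heat shock element of HSPA1A, the inducible HSP70 chaperone, began 106 bases before its start. BRD2 held 1 GC box, TRIB3 held 2 and SLC3A2 held 1 AP-1 site, 37 bases before the start. Over all 15842 protein-coding promoter windows of 300 bases (250 before and 50 after the start), 36.4% held a CCAAT box, 58.5% a GC box, 5.56% this heat shock element and 5.75% an AP-1 site. A match describes these letters and is not a bound site. The merged SE regions themselves are given in the coordinates of the deposited tables and are not on GRCh38. The sources used here do not name their build.

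The first question was how many SEs were promoter-proximal and whether ERS changed their number. The DMSO libraries listed 155, 175 and 131 of them (replicates 1 to 3), and the TM libraries 161, 212 and 166. TM 2, which had the longest list (1507 SEs against 1130 to 1290 in the other 5), had the most, and the groups overlapped. The difference of 26 SEs per library did not pass the test (153.7 ± 22.0 against 179.7 ± 28.1, SD, n = 3 each, exact permutation test, two-sided, p = 0.4), and it was 9.83 without TM 2. As a share of each list they made up 13.7%, 13.6% and 11.3% in DMSO and 14.3%, 14.1% and 13.3% in TM (exact permutation p = 0.3). Under a wider reading, in which the linked TSS of a protein-coding gene lies anywhere inside the SE, the order of the groups turned. By that reading the share was 55.2%, 51.7% and 55.6% in DMSO and 48.3%, 48.3% and 45.3% in TM, with no overlap (exact permutation p = 0.1, the smallest that 3 against 3 can give). The linked TSS lay inside the SE for all 1000 promoter-proximal SEs.

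The median promoter-proximal SE was shorter, of fewer peaks and denser in each TM library than in any DMSO library, but with 3 libraries a group no such difference could pass 0.05. The median length was 55.8, 49.7 and 55.7 kb in DMSO and 36.7, 37.6 and 31.8 kb in TM. All 3 TM libraries lay below all 3 DMSO libraries, by 18.4 kb on average (53.7 ± 3.52 against 35.3 ± 3.11 kb, SD, n = 3 each, exact permutation p = 0.1). The median number of constituent peaks was 13, 12 and 13 in DMSO and 7, 7 and 5 in TM (exact permutation p = 0.1). SEs made of only 1 to 3 peaks accounted for 4.52%, 3.43% and 2.29% of the promoter-proximal SEs in DMSO and for 19.9%, 17.9% and 28.9% in TM (exact permutation p = 0.1). In numbers, these were 7, 6 and 3 SEs in DMSO and 32, 38 and 48 in TM. The median density of all promoter-proximal SEs, the summed signal per bp on the deposited scale, was 0.743, 0.62 and 0.722 in DMSO and 0.828, 1.26 and 1.00 in TM (exact permutation p = 0.1). Median summed signals overlapped (39480, 26140 and 34000 in DMSO, 26150, 39280 and 28020 in TM, exact permutation p = 0.8). In this family of 15 comparisons between the groups, each p of 0.1 became 0.214 after Benjamini-Hochberg adjustment, so none passed 0.05. The other SEs of the same lists separated the groups in the same way. Their median length was 51.2 to 66.9 kb in DMSO and 38.9 to 45.3 kb in TM, with 13 to 16 against 7 to 9 peaks and a density of 0.574 to 0.704 against 0.761 to 1.07. Of these other SEs, 1.07% to 1.61% in DMSO and 8.26% to 15.3% in TM had 1 to 3 peaks.

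Within every library, promoter-proximal SEs differed from the other SEs of the same list. They were shorter in 6 of 6 libraries (0.869-fold, mean log2 ratio of medians -0.20 ± 0.09, SD, n = 6) and had fewer constituent peaks in 6 of 6 (0.825-fold, -0.28 ± 0.13). Their summed signal was lower in 6 of 6 (0.912-fold, -0.13 ± 0.09) and their density was higher in 6 of 6 (1.101-fold, 0.14 ± 0.06). Each of the 4 differences had an exact sign-flip permutation p of 0.031, the smallest that 6 libraries can give, and the same adjusted p over the 4 measures. Because the rule places the midpoint near a TSS, a long SE that covers a TSS is less likely to qualify than a short one. Peaks, summed signal and density can vary with length, and how much of the 4 differences the rule made was not tested. The density ratio to the other SEs was 1.06, 1.08 and 1.06 in DMSO and 1.09, 1.18 and 1.15 in TM. These ratios did not overlap between the groups (exact permutation p = 0.1, adjusted p = 0.214). The log2 ratios of length, peaks and signal changed between the groups with exact permutation p of 0.2, 0.3 and 0.9.

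**Figure D1:**
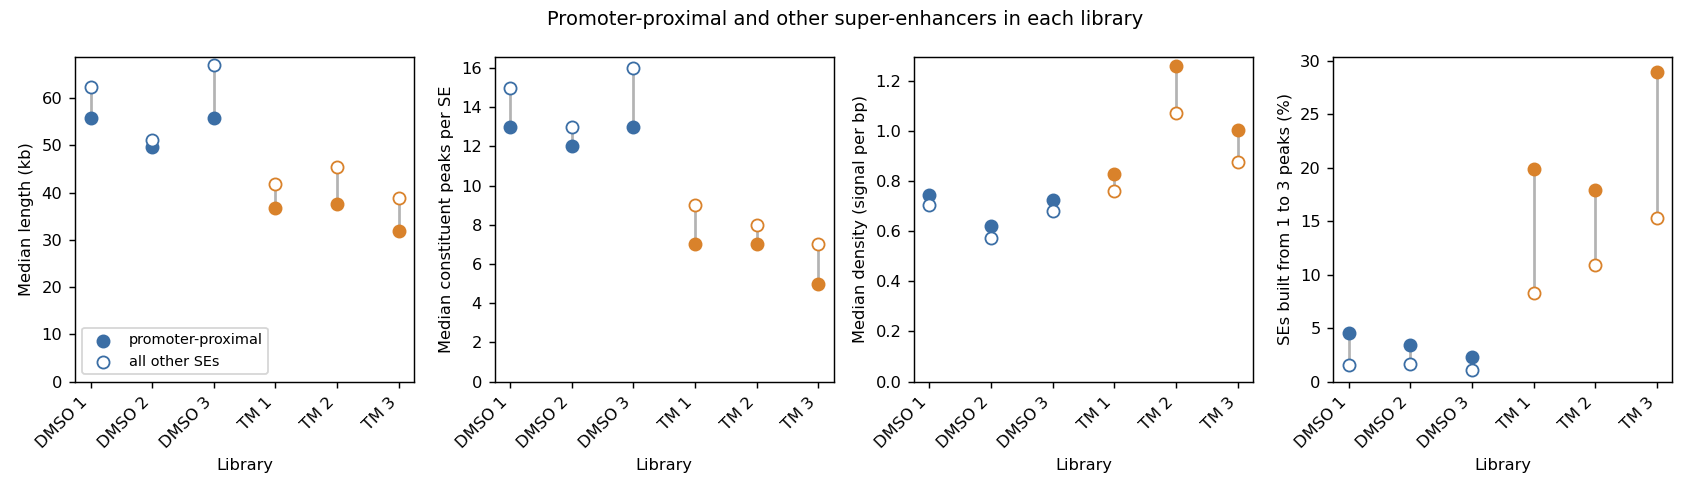
Medians of the promoter-proximal SEs (filled) and of all other SEs (open) in each library for length (kb), constituent peaks and density (signal per bp), and the share built from 1 to 3 peaks (%), DMSO in blue and TM in orange. In each of the 6 libraries the promoter-proximal SEs were shorter, had fewer peaks and were denser, and their share with 1 to 3 peaks was 2.29% to 4.52% in DMSO and 17.9% to 28.9% in TM.

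The midpoints fell on both sides of the start. Between 49.5% and 56.0% of promoter-proximal SEs per library had their midpoint downstream of the TSS, and the median distance was 2010 to 2353 bp. By the deposited annotation of the midpoint, introns were the most frequent class (47.6% to 54.2%), followed by intergenic sequence (20.0% to 26.9%) and the promoter itself (12.2% to 16.8%). Over the whole of chromosome 17 there were 38 promoter-proximal regions, 9.14% of the 416, against 4.24% of the 1368 regions without a promoter-proximal SE. Chromosome 19 held 3.61% against 1.24%. Just inside the limit lay MTHFD1L in TM 3 (-4984 bp), EXO1 in TM 2 (-4986 bp) and RPL24 in DMSO 2 (-4990 bp). Just outside it lay CISD1 in TM 3 (5010 bp), H2BC8 in DMSO 1 (5030 bp) and PKP2 in TM 2 (5039 bp). The outermost 1000 bp within the limit held 165 SEs of protein-coding genes and the next 1000 bp beyond it held 145, so the limit falls in no gap.

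Which genes were promoter-proximal varied between libraries. Of the 453 genes, 207 were promoter-proximal in 1 library only, 111 of them in a TM and 96 in a DMSO library, and 22 were so in all 6. There were 19 genes promoter-proximal in 3 TM and 0 DMSO libraries, among them BRD2, PAWR, MYLK, INO80C and S100A11. In the reverse pattern, 3 DMSO and 0 TM libraries, there were 6 (ANKFN1, HDAC7, ILRUN, KCTD14, MAP3K14 and SMAD7). The contrast of 19 with 6 was not tested, and the same count was not made over all linked genes. TM libraries also held more promoter-proximal SEs on average (179.7 against 153.7). Such a gene need not lack an SE in the other group. The regions of PAWR, MYLK and INO80C, and those of ANKFN1, HDAC7 and ILRUN, were listed in all 6 libraries.

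**Figure D2:**
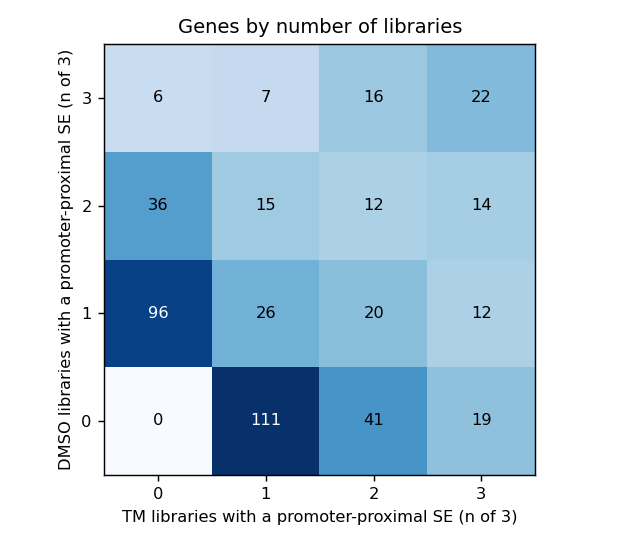
Number of genes with a promoter-proximal SE by the number of DMSO libraries (vertical, 0 to 3) and of TM libraries (horizontal, 0 to 3) in which it was found, darker for more genes. The corner for 3 DMSO and 3 TM libraries holds 22 genes, while 207 genes were found in 1 library only.

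The gene linked to a region could differ between libraries, so regions were also followed by position. Of the 416 regions with a promoter-proximal SE, 211 (50.7%) were listed in all 6 libraries, where 37.6% of all 1784 merged regions were. A region listed in more libraries has more chances to hold a promoter-proximal SE, so the difference between these shares was not tested. Among the 211, 32 were promoter-proximal in all 6 libraries, and 61 in 1 library only.

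Of the regions that were promoter-proximal in all 6 libraries, the one with the highest mean summed signal lay at CDKN2C (chr1:51420954-51455943), which encodes the CDK4 and CDK6 inhibitor p18. Its summed signal was 92040, 57290 and 89440 in DMSO and 61300, 148300 and 89260 in TM, from a length of only 27.8 to 34.6 kb and 2 to 7 peaks. At a density of 2.06 to 4.52 it was several times denser than the library medians, and the groups overlapped. At CDKN1B/GPR19 (chr12:12795751-12895363), where CDKN1B encodes the inhibitor p27, the summed signal was 63570, 45840 and 84990 in DMSO and 41310, 78760 and 48590 in TM. CDKN2A (chr9:21971655-22011103), which encodes p16 and, from another start, ARF, had its midpoint within the limit of the ARF start in all 6 libraries. Its summed signal was 42930, 31800 and 46080 in DMSO and 30160, 66030 and 42210 in TM. None of these 3 regions passed the test for a density change (limma adjusted p of 0.493, 0.621 and 0.318). They were the 3 promoter-proximal genes of the 4 CDKN genes linked to an SE. Of all linked genes, non-coding ones included, 22.6% were promoter-proximal.

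Of 15 histone genes linked to an SE, 12 were promoter-proximal, in 7 merged regions, and all 7 were listed in all 6 libraries. Of all 416 regions with a promoter-proximal SE, 50.7% were listed in all 6. Other families counted gave 4 of 6 S100 genes, 7 of 36 solute carriers and 5 of 18 ribosomal protein genes. Of TM4SF, claudin and keratin genes, 5 of 17 were promoter-proximal, and no family was tested. Over all linked genes, non-coding ones included, the share was 22.6%. At H2BC3 (chr6:26007601-26072654) the summed signal was 72630, 55350 and 66990 in DMSO and 52400, 100900 and 63850 in TM. H2BC14/H4C11 (chr6:27759003-27815669) had 68320, 51760 and 64990 in DMSO and 38600, 80420 and 50960 in TM. H1-6 (chr6:26086683-26137002), the gene of a linker histone known from testis, had 51540, 40330 and 51130 in DMSO and 42390, 79350 and 47330 in TM. In all 3 regions TM 2 was the highest library and the groups overlapped, with limma adjusted p of 0.627, 0.772 and 0.72 for density. The start sequences of H2BC3 and H2BC14, with their 3 and 5 CCAAT boxes, are the ones shown above. The density of the region at H2BC10/H4C8 (chr6:26249592-26337506) was lower in TM by 0.48 on the log2 scale (SE 0.12, limma adjusted p = 0.0311), and its 6 densities were 0.977, 0.634 and 0.944 in DMSO and 0.693, 0.857 and 0.80 in TM. The call held in 2 of 6 fits that each left out 1 library. Histone genes and HSPA1A have near-identical copies close by, and how reads shared by the copies were placed is not given in the sources used here.

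Among heat shock and J-domain genes (symbols beginning with HSP or DNAJ), 6 of 8 linked genes were promoter-proximal, in 5 regions (DNAJB1, DNAJB4, DNAJC15, HSPA1A, HSPA1L and HSPB1). The share over all linked genes, non-coding ones included, was 22.6%, and the contrast was not tested. HSPA1A/HSPA1L/LSM2 (chr6:31742564-31806238) had its midpoint at -183, 234 and 736 bp from the linked start in DMSO and at -80, -134 and -11 bp in TM. The linked start was that of HSPA1L in 4 libraries, of LSM2 in DMSO 3 and of HSPA1A in TM 3, which are neighbouring genes. Its summed signal was 56450, 43550 and 58110 in DMSO and 47150, 79000 and 55600 in TM. DNAJB1, a co-chaperone of HSP70 (chr19:14603674-14667609), had 33460, 27990 and 30140 in DMSO and 35420, 46030 and 32990 in TM. Neither region passed the test (limma adjusted p of 0.81 and 0.668). These chaperones act in the cytosol and nucleus, whereas the chaperones of the endoplasmic reticulum belong to the unfolded protein response genes described further on.

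The other regions among the 10 strongest of this class were LENEP/SHC1, where SHC1 encodes an adaptor of growth factor receptors, ACBD4/HEXIM1, where HEXIM1 encodes an inhibitor of the elongation factor P-TEFb, LAMA5, a laminin chain, and ANXA2, an annexin. ANXA2 (chr15:60650257-60720207) had summed signals of 40270, 30070 and 39970 in DMSO and 44230, 60110 and 47170 in TM, so that every TM library lay above every DMSO library. Relative to the shared regions, its total signal was 0.47 higher in TM on the log2 scale (SE 0.13, limma adjusted p = 0.0311) and its density 0.21 higher (limma adjusted p = 0.13). ONECUT2, a liver transcription factor (chr18:55093360-55117502), was the 1 member of the list of 21 liver transcription factors that was promoter-proximal. It lay 879 to 2574 bp from its start in all 6 libraries, with summed signals of 30710, 20250 and 30020 in DMSO and 24390, 39030 and 29360 in TM (limma adjusted p for density 0.224).

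**Figure D3:**
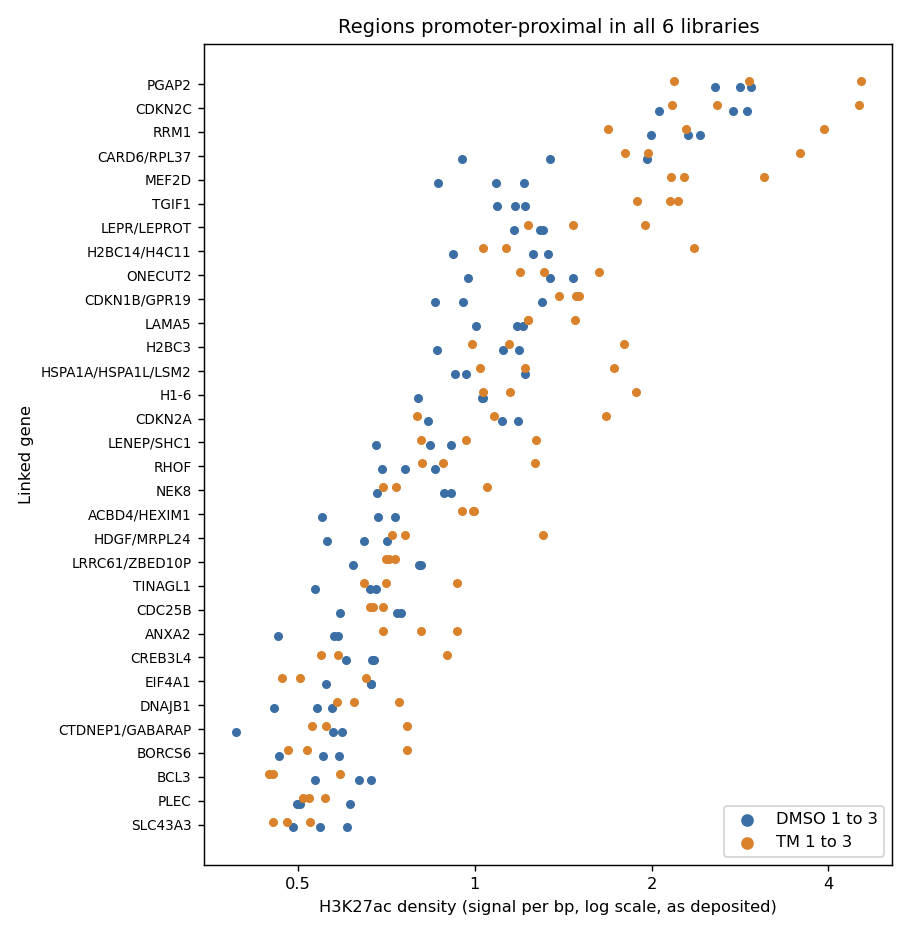
Density (signal per bp, log scale, as deposited) of the 32 regions promoter-proximal in all 6 libraries, 1 row per linked gene, with DMSO libraries in blue and TM libraries in orange. PGAP2, CDKN2C and RRM1 were the densest, the regions of H2BC3, H2BC14/H4C11 and H1-6 lay between 0.802 and 2.36, and at MEF2D, TGIF1, CDKN1B/GPR19 and LAMA5, among others, the TM densities lay above all DMSO densities before centring.

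The second question was which promoter-proximal SEs were listed in one condition only. Listed by the 3 TM libraries but by none of the DMSO libraries were 28 regions, 6.73% of the 416, where 7.57% of all merged regions had this pattern. In the reverse pattern there were 13, or 3.13%, where 5.44% of all merged regions had it. Both shares were near those of all regions or below them. Median length was 29.0 kb for the TM-only and 61.8 kb for the DMSO-only regions, and median density was 0.945 and 0.54. Of the 28 TM-only regions, 13 were promoter-proximal in all 3 TM libraries, 6 in 2 and 9 in 1. Of the 13 DMSO-only regions, 4 were so in all 3 DMSO libraries, 7 in 2 and 2 in 1.

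A region can be missing from a list because its signal was below the threshold or because its peaks were called or stitched differently. Which of these held was not tested. The lowest summed signal listed was 24790, 16750 and 24380 in DMSO and 18280, 26260 and 18880 in TM. Of the 28 TM-only regions, 13 had in every TM library an SE above the DMSO threshold that was highest, with signals as deposited. After libraries were scaled by the median density of the shared regions, 8 did, and after scaling by their total signal, 22 did. The 8 that did on all 3 scales were IRF2BP2, HKDC1, CLIP4, TRIB3, ADTRP, BRD2, MSC and QNG1. Of the 13 DMSO-only regions, 3 exceeded the highest TM threshold in every DMSO library as deposited, 13 after scaling by density and 11 after scaling by total signal. The 3 on the deposited scale did so on all 3 scales (CREB3L2-AS1, PTPN1 and C1orf226/NOS1AP).

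BRD2, which encodes a bromodomain protein that binds acetylated histones, had a TM-only region. The BRD2 region (chr6:32934605-32942981) was among the most compact of all, with a length of 7.81, 7.64 and 7.11 kb and 3, 1 and 2 peaks in TM 1 to TM 3. Its midpoint lay upstream of the linked start, at -296, -237 and -503 bp. Its summed signal was 26160, 39600 and 31120 and its density 3.35, 5.19 and 4.37, against median densities of promoter-proximal SEs of 0.828 to 1.26 in the same libraries. Among other genes of the chromatin and transcription list, HDAC7 is described further on, and the corepressor gene NCOR1 and the chromatin remodeller gene ARID1A were promoter-proximal in 1 library each.

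Of 34 unfolded protein response genes, 6 were linked to an SE and 4 were promoter-proximal (TRIB3, DDIT4, ATF6 and DERL1). These were 66.7% of the linked genes, where 22.6% of all linked genes were. That 22.6% counts non-coding genes, so the share among protein-coding genes is higher, and the contrast was not tested. By the typing of the lists, 453 protein-coding genes were promoter-proximal and 1030 were linked to other SEs only. TRIB3, a pseudokinase gene induced by ATF4 and CHOP (chr20:327760-397497), was listed in all 3 TM libraries with 37200, 44100 and 49070, and its midpoint was within the limit in TM 3 only, 919 bp from the start. DDIT4, which encodes an inhibitor of mTORC1 signalling (chr10:73954853-74124738), was listed in all 6 with 125900, 93350 and 120800 in DMSO and 118900, 171300 and 119600 in TM. Neither its total signal (log2 change 0.27, limma adjusted p = 0.0681) nor its density (-0.24, limma adjusted p = 0.245) passed the test. ATF6, a sensor of the unfolded protein response, and DERL1, a component of the degradation pathway of the endoplasmic reticulum, were listed in TM 2 only, with 28490 and 28040. Both values were near the lowest signal listed in TM 2 (26260), the library with the longest list.

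Of 22 genes of the amino acid response to ATF4, 4 were linked and 3 were promoter-proximal (TRIB3, SLC3A2 and SLC7A11), or 75% of the linked genes. Of all linked genes, non-coding ones included, 22.6% were. SLC3A2 and SLC7A11 encode the heavy and the light chain of the cystine and glutamate exchanger. SLC3A2 (chr11:62646817-62673544) was listed in TM only, with 19080, 30410 and 21410 from 3, 4 and 3 peaks, and was promoter-proximal in TM 1 and TM 3, at 3525 and 3826 bp. Its signals in TM 1 and TM 3 lay below the lowest listed in DMSO 1 and DMSO 3 (24790 and 24380). The lowest listed in TM 1 and TM 3 were 18280 and 18880. SLC3A2 was not among the 8 TM-only regions above every DMSO threshold on all 3 scales. SLC7A11 (chr4:139120576-139198509) was listed in all 6 libraries, with 40160, 30670 and 42170 in DMSO and 32810, 77640 and 45260 in TM. Its midpoint came within the limit in TM 1 and TM 3 only, and neither density nor total signal passed the test (limma adjusted p of 0.35 and 0.0583). A CHOP-ATF composite site (TTGCATCA) was found in the promoter windows of 3 of the 386 matched genes, and the unfolded protein response element (TGACGTGG) in 4. These are 0.777% and 1.04%, where 0.669% and 0.833% of all protein-coding windows held them. The composite site was in MTHFD1L, MYLK and NCOA7, and the element in AHCYL1, GPLD1, SLC50A1 and SLC7A6. The windows of TRIB3, SLC3A2, DDIT4 and ATF6 held neither.

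Other TM-only regions of high signal lay at genes with no stress list entry. IRF2BP2, a transcriptional corepressor (chr1:234734141-234768132), had 34180, 55390 and 41790 in TM 1 to TM 3. CLIP4, of the microtubule-binding CAP-Gly family (chr2:29324411-29371731), had 29700, 60740 and 37990. QNG1, an enzyme of queuosine salvage (chr9:86526752-86615579), had 29590, 53990 and 35170 and lay 71 to 498 bp from its start in all 3. HKDC1, a hexokinase family member (chr10:70938378-70997484), had 30130, 55650 and 31600. In these 4 regions TM 2 was the highest library. MSC, a repressor of the helix-loop-helix family (chr8:72740311-72781866), was promoter-proximal in all 3 TM libraries with 27150, 48980 and 31340, as were MRPS18B, a mitochondrial ribosomal protein, with 25460, 49850 and 30090, and PTTG1IP with 25910, 38070 and 27810. ADTRP had 32570, 37310 and 33820 and was promoter-proximal in TM 2 only, as was TRIM41, a ubiquitin ligase, whose signals of 21080, 51490 and 21300 came from 20969, 78022 and 21157 bp.

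The DMSO-only regions were longer and of lower density than the TM-only regions. This holds for the lists in general. Regions with a promoter-proximal SE listed in all 6 libraries had a median length of 66.0 kb in DMSO and 53.7 kb in TM. Their median density was 0.755 and 1.03. PTPN1, a tyrosine phosphatase anchored in the endoplasmic reticulum membrane (chr20:49028766-49181380), had 65510, 45620 and 35240 in DMSO 1 to DMSO 3 over 150116, 112044 and 59348 bp. CREB3L2-AS1, a locus that the deposited tables type as protein-coding and RefSeq names as an antisense RNA (chr7:137589510-137688368), had 49170, 36740 and 60980. Of the 453 genes, 8 were not protein-coding in RefSeq. BCAR1, an adhesion adaptor, had 59940, 24810 and 44170, and SMG6, a nuclease of nonsense-mediated decay, had 33220, 18720 and 63320, so both differed widely between replicates. TM4SF4, a tetraspan protein of hepatocytes (chr3:149136690-149227551), had 38890, 24790 and 35820 and was promoter-proximal in DMSO 1 and DMSO 2. The 4 regions promoter-proximal in all 3 DMSO libraries were those of C1orf226/NOS1AP (37750, 32040 and 29830), MAP3K14 (27440, 26330 and 24490), KCTD14 (26960, 24090 and 25020) and SMAD7 (26370, 19060 and 27780). MAP3K14 encodes the NF-kappaB-inducing kinase and SMAD7 the inhibitory SMAD of TGF-beta signalling. SMAD7 was linked in all 3 TM libraries to an SE elsewhere that was not promoter-proximal. The remaining DMSO-only regions named by rank, at PLCL2, PSCA, AKR1B10 and TEX2, had mean summed signals between 25330 and 30880.

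**Figure D4:**
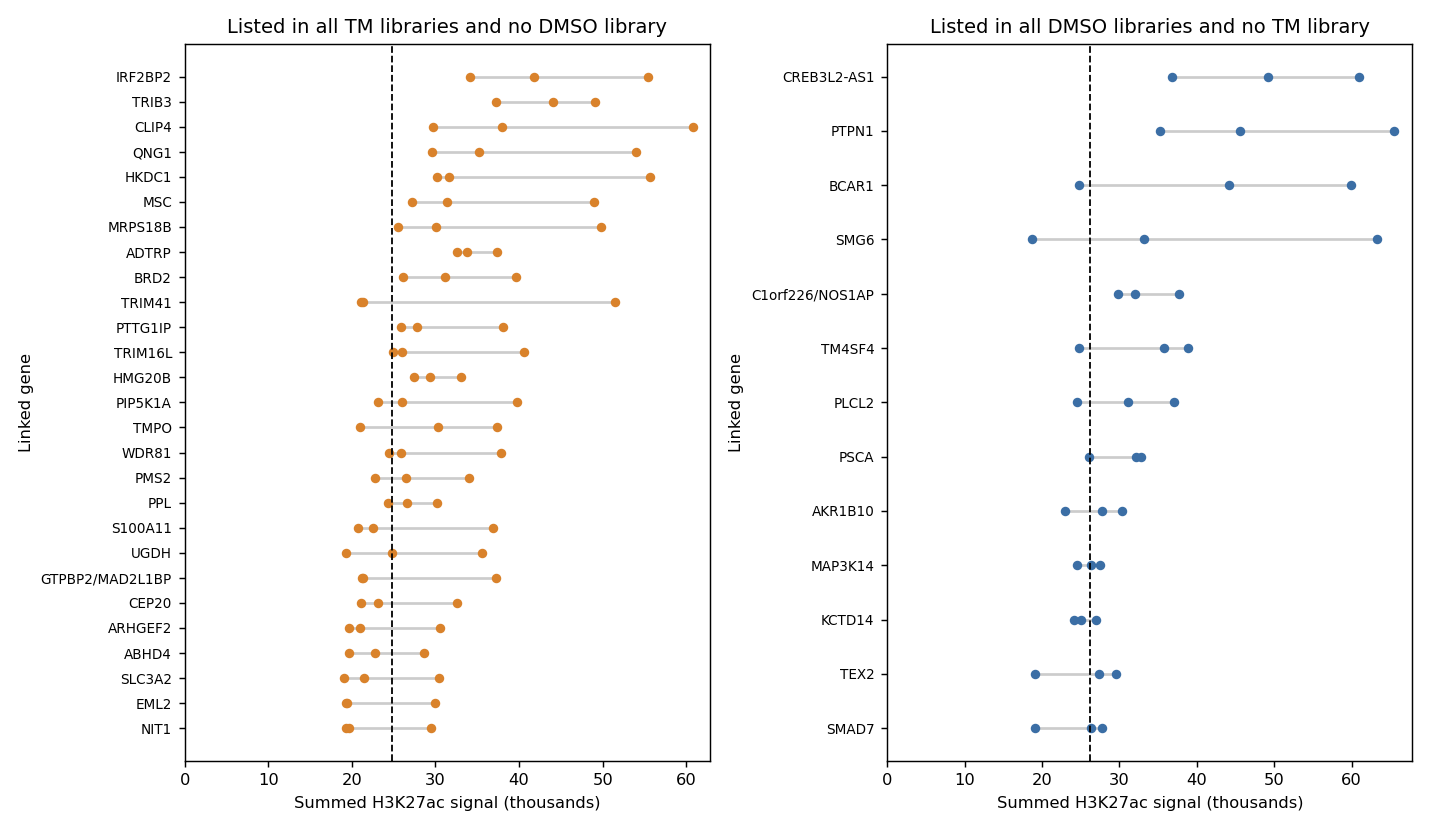
Summed H3K27ac signal (in units of 1000) in the 3 TM libraries of 27 TM-only regions (left, orange) and in the 3 DMSO libraries of the 13 DMSO-only regions (right, blue), 1 row per linked gene. The dashed line is the highest threshold of the other group, 24790 for DMSO and 26260 for TM, and 12 of the TM-only and 3 of the DMSO-only regions drawn lie wholly to its right.

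The third question was whether regions listed in all 6 libraries changed in density. The 670 regions shared by all libraries were fitted together in limma, on log2 density after the median of each library was subtracted. Of the 211 shared regions with a promoter-proximal SE, 12 were higher in TM (5.69%, where 6.72% of all shared regions were) and 20 were lower (9.48%, where 10.6% were). Their median change was -0.05 on the log2 scale, against -0.03 over all shared regions. For total signal, 26 were higher (12.3%, where 18.7% of all shared regions were) and 28 were lower (13.3%, where 13.7% were). Of the 211, 3 were called higher on both measures, 7 lower on both, and 4 in opposite directions. Before centring, densities in TM exceeded those in DMSO by a median of 0.35 on the log2 scale over all shared regions, so all changes are relative to that shift. Without centring, 38 were higher and 0 were lower (70 of the 211 had an unadjusted limma p under 0.05 in the centred fit). The counts depended on single libraries. The number higher was 5 without DMSO 1, 7 without DMSO 3 and 22 without TM 2, and the number lower was 8 without DMSO 1, 9 without DMSO 2, 10 without DMSO 3 and 10 without TM 3. Of the 32 calls, 5 higher and 7 lower held in all 6 fits that left out a library.

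The regions with the highest gain in density were listed as shorter in TM. PAWR, a pro-apoptotic gene (chr12:79927787-80100492), had densities of 0.682, 0.573 and 0.626 in DMSO and 1.38, 2.74 and 1.85 in TM, and the difference was 1.23 on the log2 scale (SE 0.15, limma adjusted p = 0.00273). Its listed length was 134723, 102836 and 160263 bp in DMSO and 41971, 38939 and 39152 bp in TM, and its total signal did not pass the test (-0.09, limma adjusted p = 0.54). The SE was centred on the PAWR start in the 3 TM libraries, at 273, 2118 and -264 bp, and in no DMSO library. SMS, which encodes spermine synthase (chrX:21942599-22015369), had densities of 0.506, 0.443 and 0.549 in DMSO and 0.935, 1.91 and 1.14 in TM (0.97, SE 0.15, limma adjusted p = 0.0068), while its total signal was lower by 0.31 (limma adjusted p = 0.0314). At PIEZO2, a mechanosensitive channel (chr18:11074050-11200120), the density rose by 1.04 (SE 0.24, limma adjusted p = 0.0225), and the mean listed length was 106 kb in DMSO and 26.4 kb in TM. The PIEZO2 call did not hold without DMSO 1, without DMSO 3 or without TM 3 (limma adjusted p of 0.0703, 0.0637 and 0.078). The SMS region was promoter-proximal in 1 TM library only and the PIEZO2 region in 1 DMSO library only. Of the 12 regions higher in TM, 11 had a shorter mean length in TM and 7 had a total signal change below 0. Over all 211 regions, 81.5% were shorter in TM, as were 81.8% of all shared regions.

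At MEF2D the density gain came with a compact region that was promoter-proximal in every library. MEF2D, a transcription factor of the MADS-box family (chr1:156453592-156489391), had densities of 1.21, 1.09 and 0.864 in DMSO and 2.16, 3.11 and 2.27 in TM (0.87, SE 0.17, limma adjusted p = 0.0121). Its length was 24.3, 18.4 and 35.8 kb in DMSO and 12.6, 13.04 and 12.8 kb in TM. GNG11, a G protein gamma subunit, rose in density by 0.81 (SE 0.13, limma adjusted p = 0.00696) and EPB41L1, a membrane skeleton protein, by 0.78 (SE 0.14, limma adjusted p = 0.00943). GNG11 was promoter-proximal in 2 DMSO and 2 TM libraries, and EPB41L1 in 1 DMSO and 3 TM libraries. Total signal did not pass the test at MEF2D, GNG11 or EPB41L1 (log2 changes of 0.28, -0.28 and 0.34, limma adjusted p of 0.0591, 0.217 and 0.0927). TGIF1, a homeodomain repressor of TGF-beta responses, was higher in density by 0.46 (SE 0.14, limma adjusted p = 0.0488) and in total signal by 0.67 (limma adjusted p = 0.00732), and with MEF2D it was 1 of the 2 regions promoter-proximal in all 6 libraries that rose in density. The density call at TGIF1 held in only 1 of the 6 fits that left out a library, the one without TM 2.

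FTH1, which encodes the ferritin heavy chain, had a higher total signal in TM. At chr11:61714297-61825369 its summed signal was 78200, 53730 and 75350 in DMSO and 116500, 155900 and 128200 in TM, with no overlap. Its total signal was 0.97 higher on the log2 scale (SE 0.12, limma adjusted p = 0.00195) and its density 0.40 higher (SE 0.11, limma adjusted p = 0.039), over a mean listed length of 84.9 kb in DMSO and 95.4 kb in TM. The density call held only without TM 2 among the 6 fits that left out a library. Of 17 iron and redox genes, 8 were linked and 5 were promoter-proximal (FTH1, NFE2L2, TXNRD1, SQSTM1 and SLC7A11). These were 62.5% of the linked genes, where 22.6% of all linked genes, non-coding ones included, were. FTH1 was promoter-proximal in DMSO 1 and in all 3 TM libraries, at 2240 to 3006 bp.

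Among the regions lower in TM, the largest fall in centred density lay at BCL3, an atypical IkappaB protein (chr19:45219952-45288220), whose total signal did not pass the test (-0.25, limma adjusted p = 0.137). Its densities were 0.665, 0.534 and 0.635 in DMSO and 0.453, 0.59 and 0.446 in TM. Relative to the library medians this was a fall by 0.69 on the log2 scale (SE 0.09, limma adjusted p = 0.00415), and without centring it was -0.31. The region was promoter-proximal in all 6 libraries and kept its length (60.1 kb in DMSO and 62.3 kb in TM on average). EIF4A1, the helicase of translation initiation (chr17:7451620-7495775), also kept its length (44.0 and 43.7 kb) and fell in density by 0.61 (SE 0.10, limma adjusted p = 0.00729), with densities of 0.666, 0.557 and 0.665 in DMSO and 0.503, 0.652 and 0.469 in TM. Its total signal did not pass the test (-0.23, limma adjusted p = 0.219). At FSTL1, a secreted glycoprotein gene (chr3:120134560-120230055), the summed signal was 68440, 52820 and 91330 in DMSO and 24700, 36180 and 25660 in TM, with no overlap. The log2 change of total signal was -1.28 (limma adjusted p = 0.00131), and density changed by -0.64 (SE 0.11, limma adjusted p = 0.00798). The FSTL1 region was promoter-proximal in 2 DMSO libraries and in no TM library. RIPOR3 fell in density by 0.62, ADAMTSL4 by 0.57 and NIBAN2 by 0.56 (limma adjusted p of 0.00693, 0.00943 and 0.00696). RIPOR3 and NIBAN2 were each promoter-proximal in 1 DMSO library only, and ADAMTSL4 in 1 TM library only. Total signal was lower at RIPOR3 (-0.60, limma adjusted p = 0.00854). It did not pass the test at ADAMTSL4 or NIBAN2 (-0.05 and -0.11, limma adjusted p of 0.724 and 0.477). SREBF1, the gene of the sterol regulator SREBP1, fell in density by 0.47 (SE 0.14, limma adjusted p = 0.0462), and this call held in 2 of the 6 fits that left out a library. Total signal at SREBF1 did not pass the test (-0.14, limma adjusted p = 0.439). Of the 20 regions lower in TM, 1, at MITF, had a density change above 0 without centring.

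**Figure D5:**
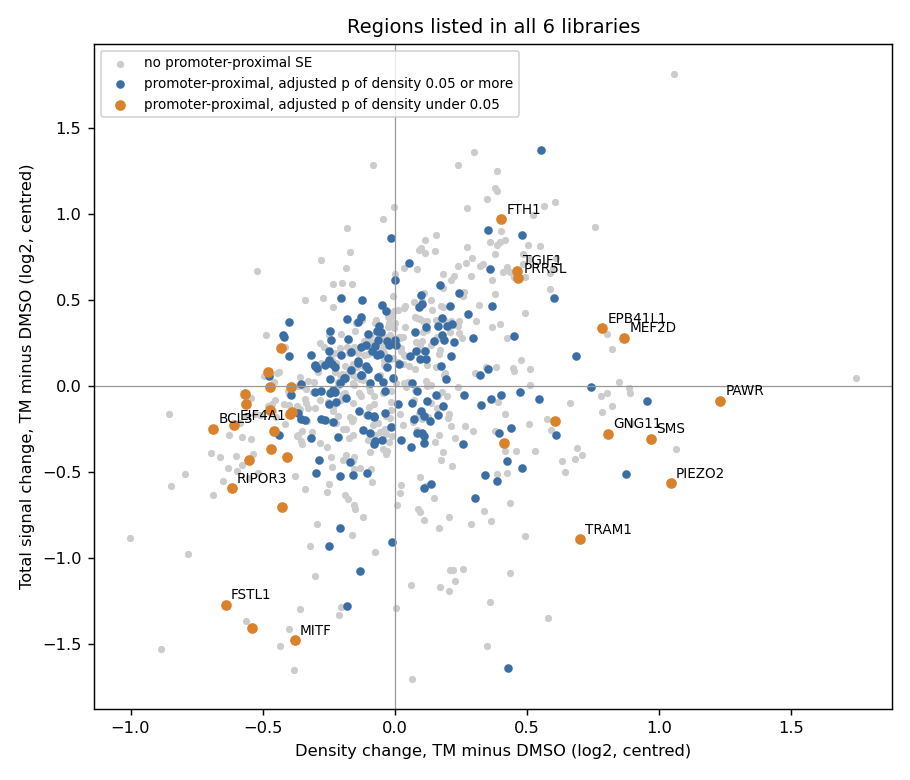
Change in density (horizontal) and in total signal (vertical), TM minus DMSO on the log2 scale and centred on each library's median, for the 670 regions listed in all 6 libraries. Regions promoter-proximal in any library are in orange past the density threshold and in blue otherwise, and regions without a promoter-proximal SE in grey. PAWR, PIEZO2, SMS and GNG11 lie to the right and below 0 on the vertical axis.

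In some regions listed in both groups, only one group placed the centre at the start. HDAC7, ANKFN1 and ILRUN were promoter-proximal in all 3 DMSO libraries and, although listed, in no TM library. At HDAC7, which encodes a histone deacetylase (chr12:48196451-48246918), the midpoint lay at -283, -2654 and -294 bp in DMSO, and the summed signal was 44890, 32950 and 43060 in DMSO and 43680, 61680 and 41920 in TM. The mean length was 33.5 kb in DMSO and 41.5 kb in TM, and density did not pass the test (-0.42, limma adjusted p = 0.0568). At ANKFN1 the total signal fell by 0.44 (limma adjusted p = 0.0119). The reverse was seen at PAWR, INO80C, MYLK and LIPH. INO80C, a subunit of the INO80 chromatin remodeller (chr18:32987564-33107912), had 77800, 56190 and 73910 in DMSO and 26150, 46420 and 27770 in TM, over a mean length of 106 and 42.1 kb. Its total signal fell by 1.08 (SE 0.10, limma adjusted p = 0.000987) and its density by 0.13, which did not pass the test (limma adjusted p = 0.398). At MYLK, the myosin light chain kinase, the total signal rose by 0.42 (limma adjusted p = 0.0205), and LIPH passed neither test (limma adjusted p of 0.325 for density and 0.344 for total signal).

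The remaining lists gave single genes. Of 29 cell-cycle genes and oncogenes, 9 were linked and 4 were promoter-proximal (CDKN1B, MYC, YAP1 and EGFR). YAP1, the effector of Hippo signalling (chr11:101964822-102005211), had one of the densest SEs, built of 1 or 2 peaks, with densities of 5.67 and 4.30 in DMSO 1 and DMSO 3 and 2.68, 6.00 and 5.11 in TM. It was not listed in DMSO 2. MYC was promoter-proximal in TM 3 only and linked in no DMSO library. Of 33 immediate-early and AP-1 genes, 14 were linked and 3 were promoter-proximal (IER2, DUSP5 and MYC), or 21.4%. Of all linked genes 22.6% were, and that share is higher among protein-coding genes alone. Of 11 linked genes of inflammatory signalling 2 were (STAT3 and OSMR), and of 10 linked adhesion and matrix genes 3 were (SMAD2, SMAD7 and FSTL1). Of 6 linked lipid genes 2 were (SREBF1 and LIPC), and of 5 linked genes of angiogenesis and hypoxia 0 were. The list of hepatocyte products had 4 linked genes, of which 3 were promoter-proximal (CPS1, TM4SF4 and FTH1). FTH1 was also on the iron and redox list and was not among the 24 hepatocyte markers. These counts are descriptions, and no list was tested against the others.

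The promoters of the genes were described from sequence. Of the 453 genes, 386 were matched to a RefSeq promoter window. The share with a CpG observed-to-expected ratio above 0.6 was 69.7%, against 65.7% of all protein-coding windows and 74.2% for genes linked to other SEs only. A GC box was found in 61.9%, a CCAAT box in 36.3% and a TATA box (TATAAA) in 10.6%, where 58.5%, 36.4% and 9.63% of all windows held them. For the 38 matched genes of the 32 always promoter-proximal regions, these shares were 76.3%, 39.5% and 18.4%. Of 25 matched genes at TM-only regions 20 passed the CpG ratio and 0 held a TATA box, and of 10 at DMSO-only regions 5 and 1 did. These shares rest on few genes and were not tested.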

How the data were processed

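Per the labels, H3K27ac ChIP-seq was run on HepG2 cells given DMSO or TM, with 3 libraries each. An input library was not analysed here. CASAVA 1.4 appears in the processing notes of the submitters, as do mm9 and hg38, without a role. The deposited tables list MACS peaks stitched in each library, annotated in the layout of HOMER, with a signal per SE. That deposited signal is a density in steps of 0.0001 per bp times the length. Whether it was scaled to depth or input is not given in the sources used here, nor is the stitching distance. Distances refer to the SE midpoint. Values of a merged region in a library are summed over its listed SEs.

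Gene names were updated by Entrez ID from the RefSeq table of GRCh38.p14. Library values were compared by exact two-sided permutation tests, and shared regions by limma 3.58.1 with a trended variance (R 4.3.3). Calls needed a p under 0.05 after Benjamini-Hochberg adjustment. The fit was also run on simulated independent noise with planted changes, as a check of the code only. That simulation does not cover differing listed lengths or dependence on single libraries. Python 3.11.15, pandas 2.3.3, numpy 2.4.6 and matplotlib 3.10.9 were used. Alternatives were the distance limit, the scaling, the merging and each library left out.

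The text names the 10 strongest regions promoter-proximal in all 6 libraries, up to 12 TM-only and 12 DMSO-only regions of highest signal, the 6 highest and 6 lowest called changes, list genes promoter-proximal in 3 libraries of a group, and genes promoter-proximal in one group and listed in both. Other names were chosen after their values were seen. The members and the 13 gene lists were chosen with earlier results of these data known. One item named by these rules, with the count of its list, is not reported here.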

Additional observations from a re-analysis of the deposited data

How the results depend on the processing

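With the linked TSS anywhere inside the SE, the TM minus DMSO difference in number was -32 per library and in share of the list -6.88 percentage points, both reversed. By means in place of medians, the TM minus DMSO change of the log2 ratio to other SEs reversed for length (0.0152), peaks (0.031) and signal (0.0316). For signal it also reversed without DMSO 1 (0.0268) and without DMSO 2 (0.0106). With 5 libraries the exact sign-flip p for promoter-proximal against other SEs cannot go below 0.0625, so no fit that left out a library passed. The log2 ratios then ranged from -0.234 to -0.184 (length), -0.309 to -0.235 (peaks), 0.12 to 0.151 (density) and -0.155 to -0.103 (signal). At a limit of 2000 bp the ratio for peaks was -0.272 (exact sign-flip p = 0.0625). TM-only and DMSO-only regions numbered 13 and 6 at 2000 bp, 44 and 24 at 10000 bp, and 13 and 4 where every listed SE was promoter-proximal. Density calls numbered 38 higher and 0 lower without centring, 2 higher and 5 lower among regions promoter-proximal in all 6 libraries, and 26 higher for total signal. Leaving out 1 library gave 5 to 22 higher and 8 to 24 lower. Replicate numbers did not pair the libraries (same-number r of -0.00802, -0.0466 and -0.0259). With the replicate block 14 regions were higher and 14 lower. The mean difference over 3 pairs equals that of the group means, so 26 in number and -18.4 kb in length could not change. No exact p could go below 0.25 over 3 pairs. Read depth is unknown, so no counting error can be given.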
